A study of Rattus norvegicus with 2 samples.

Results

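In all, 8 identifiers were followed in cultured rat cortical neurons: the NMDA receptor subunits Grin1 (ENSRNOG00000011726), Grin2a (ENSRNOG00000033942) and Grin2b (ENSRNOG00000008766), the AMPA receptor subunit Gria1 (ENSRNOG00000045816), the vesicular glutamate transporters Slc17a7 (ENSRNOG00000020650) and Slc17a6 (ENSRNOG00000016147), the postsynaptic scaffold Dlg4 (ENSRNOG00000018526) and the postsynaptic kinase Camk2a (ENSRNOG00000018712). They were chosen by identifier as genes of the excitatory synapse. The rule uses no measured value, but it was written when earlier results of these data were known. All 8 of 8 were present among the 16756 genes of the deposited tables, 0 were absent, and all 8 had at least 20 reads in the 2 libraries together. The tables carry no gene symbols, so each symbol is the one given with its identifier when the list was drawn up, and this pairing was not checked against an annotation.

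Cortical neurons were prepared from Sprague-Dawley rat embryos at E18, plated in serum and then kept in serum-free medium. They were treated for 36 h with NC siRNA, a universal control duplex, or with CDH12 siRNA, a single duplex against the type II cadherin CDH12, and each treatment was represented by 1 RNA-seq library. The methods describe delivery by electroporation, and how many embryos or cultures went into a library is not given in the sources used here. The level of the Cdh12 transcript and markers of neurons, glia and other cells were not analyzed here, because no table at hand paired their symbols with these identifiers.

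At an excitatory synapse, glutamate is loaded into vesicles by Slc17a7 and Slc17a6 (VGLUT1 and VGLUT2), released, and bound by AMPA and NMDA receptors on the postsynaptic side. NMDA receptors combine the obligatory subunit Grin1 (GluN1) with Grin2 subunits. Grin2b dominates in embryonic cortex, whereas Grin2a increases after birth. Dlg4 (PSD-95) anchors these receptors, and Camk2a, which is activated by the calcium that NMDA receptors let in, is a kinase of later postnatal synapses.

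The recovered reads summed to 15500488 for NC siRNA and 13699612 for CDH12 siRNA. Values are given as reads and as normalized counts, which are the reads divided by the size factor of the library (a number that corrects for the unequal depth of the libraries). With 1 library per treatment no difference has a replicate check. An effect of the siRNA, a difference between 2 cultures and a difference between 2 library preparations cannot be told apart, and in bulk RNA fewer cells of a type and less RNA per cell cannot be told apart either. Differences are therefore given with a counting interval and, where stated, a widened interval. The counting interval is the 95% Wilson interval of how a gene's reads split between the libraries, and covers counting error only. The widened interval uses, in addition, how much all genes of a similar read number varied between these libraries beyond counting error.

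All 8 genes had lower normalized counts in the CDH12 siRNA library, by between 4.04% (Dlg4) and 25.6% (Grin2b). Of all 13317 genes with at least 20 reads, 51% were lower by any amount. The 8 genes share the same 2 libraries and the same scaling, so their common direction is not 8 independent observations. Their median log2 fold change was -0.12, against -0.00303 over all genes with at least 20 reads. Of the 8, 0 differed by more than 2-fold, where 1.92% of all such genes did, and 0 differed by more than 1.5-fold, where 6.17% did. The counting interval lay wholly below no change for 3 genes, Grin1, Grin2b and Gria1, against 12.9% of all genes below and 10.8% above. The widened interval lay wholly below no change for Grin1 alone among the 8, against 4.11% of all genes.

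**Figure D1:**
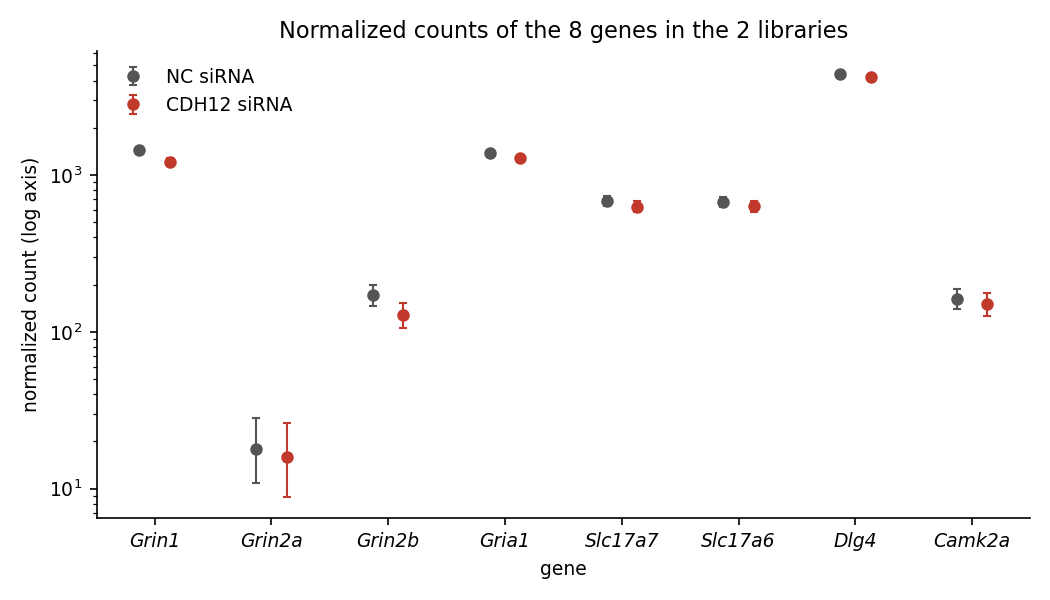
Normalized counts (vertical log axis) of the 8 genes in the NC siRNA library (grey) and the CDH12 siRNA library (red), 1 library each, with bars for the exact 95% Poisson interval of the reads. The CDH12 siRNA point is the lower one for all 8 genes, and the bars overlap for every gene except Grin1, where 6.23% of all genes with at least 20 reads have a CDH12 siRNA bar wholly below the NC siRNA bar.

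The NMDA receptor subunits had the lowest log2 fold changes of the 8 genes, although that of Grin2a rested on few reads. Grin1, the subunit present in every NMDA receptor, had 1529 reads with NC siRNA and 1146 reads with CDH12 siRNA, or 1444 and 1214 normalized counts. This is a level 15.9% lower in the CDH12 siRNA library, a log2 fold change of -0.25 with a counting interval from -0.36 to -0.14 and a widened interval from -0.45 to -0.05. Among the 2390 genes with 2000 to 4999 reads, 64 (2.68%) had a log2 fold change as low or lower.

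Grin2b, the subunit typical of embryonic receptors, had 181 reads with NC siRNA and 120 with CDH12 siRNA, or 171 and 127 normalized counts. Its log2 fold change of -0.43, a level 25.6% lower, was the lowest of the 8. The counting interval ran from -0.76 to -0.09, and the widened interval, from -0.94 to 0.08, included no change. Among the 1891 genes with 200 to 499 reads, 84 (4.44%) were as low or lower.

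Grin2a, the subunit of more mature receptors, had the fewest reads of the 8, with 19 for NC siRNA and 15 for CDH12 siRNA, or 17.9 and 15.9 normalized counts. The log2 fold change of -0.18 had a counting interval from -1.13 to 0.78, so that neither a 2-fold lower level nor a level up to 1.72 times as high lay outside it, and a widened interval from -1.40 to 1.05. No difference in Grin2a was detectable with these reads.

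Summed over the 3 NMDA receptor subunits, there were 1729 reads with NC siRNA and 1281 with CDH12 siRNA, of which Grin1 made up most. The sum was lower by 16.9% in the CDH12 siRNA library, with a log2 fold change of -0.27, a counting interval from -0.37 to -0.16 and a widened interval from -0.45 to -0.08. The widened interval of a sum treats its genes as independent. The sum of both vesicular transporters had a log2 fold change of -0.10, with a counting interval from -0.21 to 0.00688 and a widened interval from -0.28 to 0.07. The sum of Dlg4 and Camk2a had a log2 fold change of -0.06, with a counting interval from -0.12 to -0.00145 and a widened interval from -0.19 to 0.07. Of these sums by role, the widened interval lay wholly below no change for the NMDA receptor subunits. It included no change for the transporters and for the postsynaptic genes. With Gria1 added to the NMDA receptor subunits, the log2 fold change was -0.19. The widened interval of that sum, from -0.33 to -0.06, also lay wholly below no change. Whether the sums differ from each other was not tested, and the share of comparable sums over all genes was not computed.

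Because the study follows the cAMP pathway, whose transcription factor CREB binds the cAMP response element (CRE), the 250 bases before the RefSeq start of the members were searched. RefSeq promoters of build GRCr8 were matched by symbol for 5 of the 8, namely Grin1, Slc17a7, Slc17a6, Dlg4 and Camk2a, and not for Grin2a, Grin2b and Gria1. The full palindrome TGACGTCA was found in 0 of the 5, and in 1.59% of all 33469 promoters. Its core TGACG, or CGTCA on the other strand, was found in 3 of the 5 (Grin1, Slc17a6 and Camk2a) and in 18.2% of all promoters, and every full palindrome also counts as a core. The GC box GGGCGG, or CCGCCC on the other strand, was found in 1 of the 5 (Slc17a7) and in 30.5% of all promoters. The RefSeq start used is the outer end of the gene for Grin1 and Slc17a6, whereas for Slc17a7, Dlg4 and Camk2a it lies inside the annotated gene, so part or all of those windows does too. A match describes the letters of this window and does not show binding. The stretches for Grin1 and Slc17a6, whose RefSeq starts are the outer ends of their genes, are printed 5′ to 3′ on the strand of the gene. TGACG, or CGTCA where the core lies on the other strand, is in capitals. Whether the core relates to the difference of a gene between the libraries was not tested.

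Grin1, GRCr8 chr3:28528755-28529004, minus strand: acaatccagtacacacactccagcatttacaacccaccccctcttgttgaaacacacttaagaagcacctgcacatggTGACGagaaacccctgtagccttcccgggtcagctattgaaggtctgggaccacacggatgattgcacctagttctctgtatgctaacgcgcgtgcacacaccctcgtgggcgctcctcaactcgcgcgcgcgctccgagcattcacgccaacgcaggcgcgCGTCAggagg

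Slc17a6, GRCr8 chr1:110348197-110348446, plus strand: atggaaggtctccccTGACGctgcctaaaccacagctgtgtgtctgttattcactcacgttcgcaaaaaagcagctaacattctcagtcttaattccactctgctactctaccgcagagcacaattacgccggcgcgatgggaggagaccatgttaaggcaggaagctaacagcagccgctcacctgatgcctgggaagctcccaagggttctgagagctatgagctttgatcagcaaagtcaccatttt

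The AMPA receptor was represented by Gria1 (GluA1), a pore-forming subunit of receptors for fast excitation. It had 1461 reads with NC siRNA and 1203 with CDH12 siRNA, or 1379 and 1274 normalized counts, a level 7.62% lower. The log2 fold change was -0.11, with a counting interval from -0.22 to -0.00429. With the libraries scaled by total reads the upper bound became 0.00792, so the interval then included no change, as did the widened interval, from -0.31 to 0.08. Of the 2390 genes with 2000 to 4999 reads, the class that also held Grin1, 15.3% were as low or lower.

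Both vesicular transporters were measured with nearly equal read numbers. Slc17a7 had 721 reads with NC siRNA and 593 with CDH12 siRNA, or 681 and 628 normalized counts. Slc17a6 had 715 and 598 reads, or 675 and 633 normalized counts. Their log2 fold changes were -0.12 (counting interval from -0.27 to 0.04) and -0.09 (from -0.25 to 0.06), so both intervals included no change, as did the widened intervals, from -0.36 to 0.13 and from -0.34 to 0.16. Of the 2437 genes with 1000 to 1999 reads, 16.9% were as low as Slc17a7 and 22.4% as low as Slc17a6. Differences beyond 1.5-fold lay outside the intervals of both genes, counting and widened, in either direction.

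On the postsynaptic side, Dlg4 was the most deeply read of the 8, with 4672 reads for NC siRNA and 3996 for CDH12 siRNA, or 4411 and 4233 normalized counts. It was lower by 4.04%, a log2 fold change of -0.06 with a counting interval from -0.12 to 0.00141 and a widened interval from -0.19 to 0.07. Both included no change, and 26.3% of the 877 genes with 5000 to 9999 reads were as low or lower.

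Camk2a, with 172 and 142 reads, or 162 and 150 normalized counts, had a log2 fold change of -0.11, a counting interval from -0.43 to 0.21 and a widened interval from -0.60 to 0.38. It lay in the same read class as Grin2b, where 33.7% of the genes were as low as Camk2a.

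**Figure D2:**
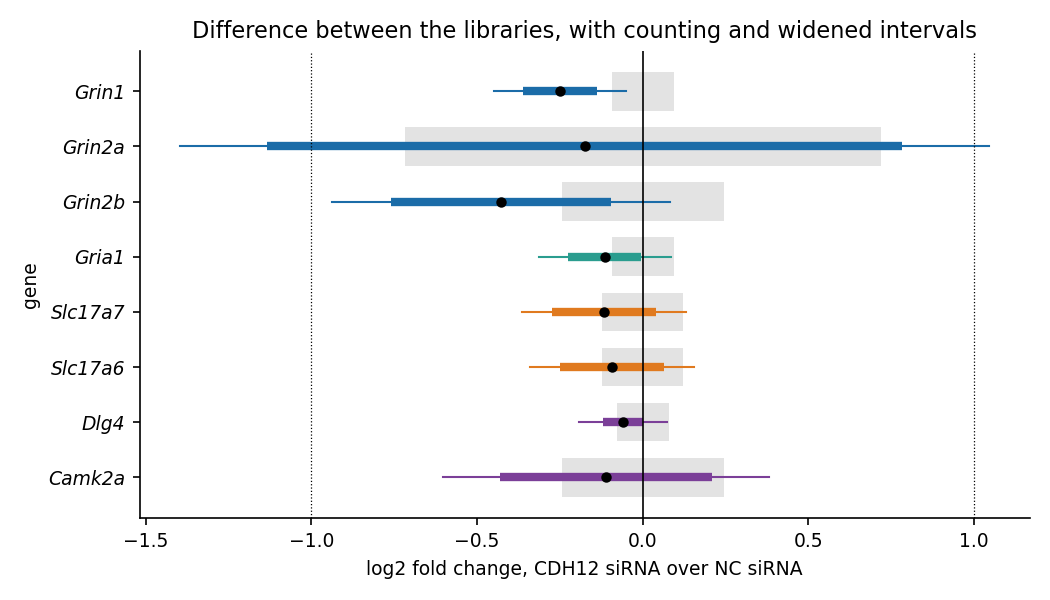
Log2 fold change (horizontal axis, CDH12 siRNA over NC siRNA) of each gene as a black point, with the 95% counting interval as a thick line and the widened interval as a thin line. Grey boxes span plus and minus the spread (scaled median absolute deviation) of all genes of the same read class, and dotted lines mark 2-fold. All 8 points lie left of 0, and those of Grin1, Grin2b and Gria1, 3 of the 8, lie below their boxes, where 17.1% of all genes with at least 20 reads lie below theirs.

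**Figure D3:**
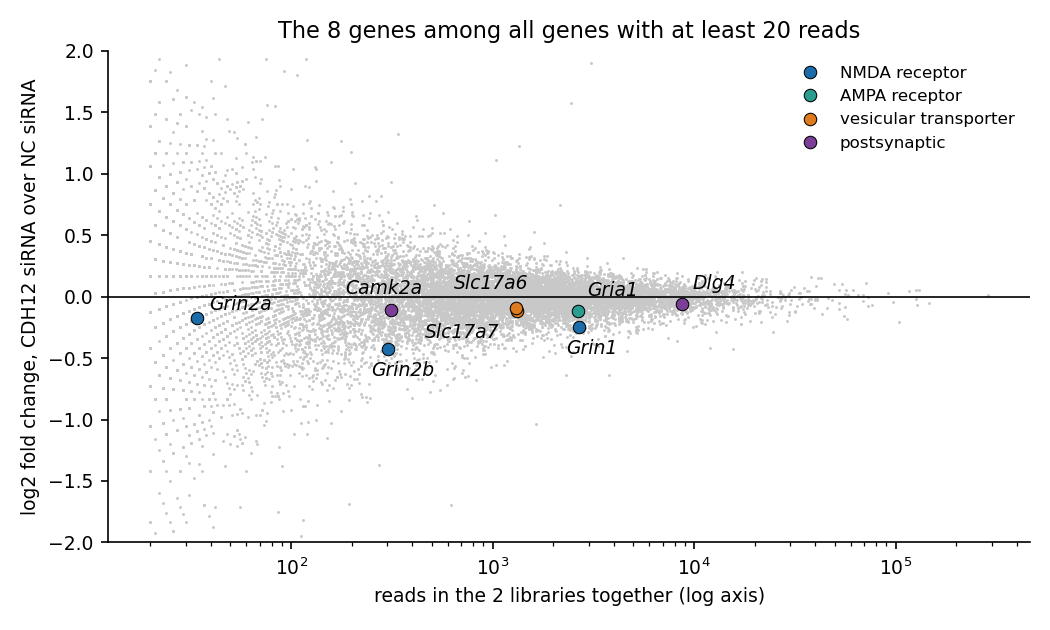
Log2 fold change (vertical axis) against reads in the 2 libraries together (horizontal log axis) for all genes with at least 20 reads in grey, and for the 8 genes in colour by role. The 13279 grey points lie within the vertical limits of 2 and another 38 genes lie beyond them. The 8 genes lie below 0 inside the cloud, with Grin1 and Grin2b toward its lower edge.

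Ratios between 2 genes within a library do not depend on the scaling between libraries. They are ratios of reads, which also carry the lengths of the transcripts, so they do not order the genes by level, and only their change between libraries is read. In all, 7 pairs were compared, of which 4 contain Grin1, and their widened intervals all included no difference. Reads of Grin2b per read of Grin2a, the ratio that falls as NMDA receptors mature, were 9.53 with NC siRNA and 8 with CDH12 siRNA. The log2 change of -0.25 had a counting interval from -1.28 to 0.78, set by the few Grin2a reads. Reads of Grin2b per read of Grin1 were 0.118 and 0.105, a log2 change of -0.18 (from -0.53 to 0.17). The counting intervals of the ratios among NMDA receptor subunits thus all included no difference.

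The pair of transporters kept nearly the same ratio, with 0.992 reads of Slc17a6 per read of Slc17a7 with NC siRNA and 1.01 with CDH12 siRNA. The log2 change was 0.02, from -0.20 to 0.25. Reads of Camk2a per read of Dlg4 were 0.0368 and 0.0355, a log2 change of -0.05 (from -0.38 to 0.28).

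Of the 7 pairs, 1 had a counting interval on one side of no difference, that of Dlg4 with Grin1. The share of such intervals among all pairs of genes was not computed, so this count cannot be set against it. The variance between the libraries was 3.28 times that of counting in the read class of Grin1, and 4.77 times in that of Dlg4. Reads of Dlg4 per read of Grin1 were 3.06 with NC siRNA and 3.49 with CDH12 siRNA, a log2 change of 0.19 with an interval from 0.06 to 0.32. The widened interval ran from -0.05 to 0.43. Reads of Gria1 per read of Grin1 were 0.956 and 1.05, a log2 change of 0.14 (from -0.02 to 0.29), and those of Grin2a per read of Grin1 were 0.0124 and 0.0131, a log2 change of 0.07 (from -0.91 to 1.06).

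**Figure D4:**
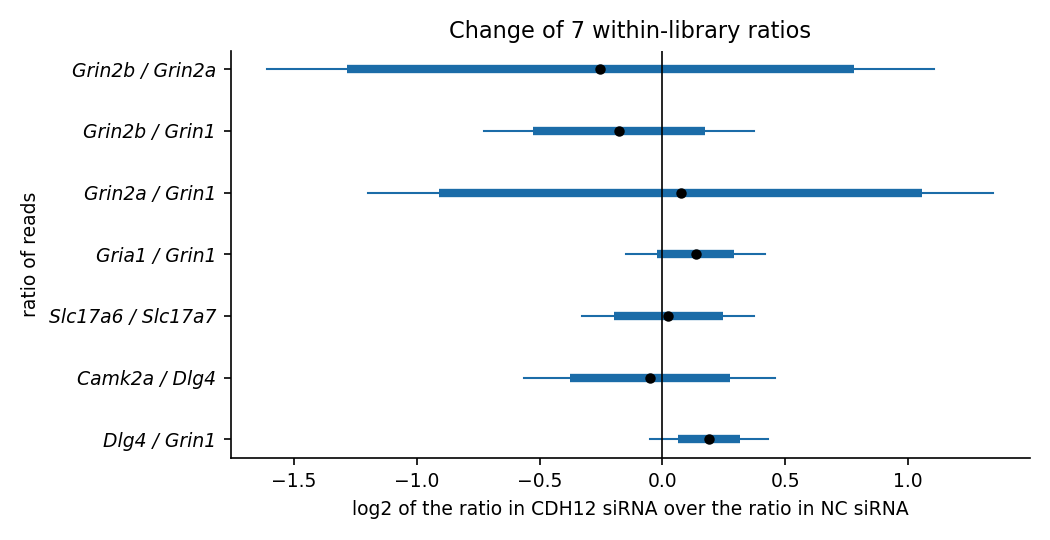
Log2 change of 7 ratios of reads between the libraries (horizontal axis), with the first gene over the second at the left. Thick lines are 95% counting intervals and thin lines widened intervals. The thick line of Dlg4 over Grin1 lies right of 0, and every thin line crosses 0.

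Together the 8 genes took 9470 reads, or 0.0611% of the library, with NC siRNA and 7813 reads, or 0.0570%, with CDH12 siRNA. Their summed normalized counts were lower by 7.44%, a log2 fold change of -0.11 (counting interval from -0.15 to -0.07, widened interval from -0.20 to -0.03). Here too the widened intervals treat the genes as independent, and the share of comparable sums over all genes was not computed. Without Grin1 the sum of the other 7 was lower by 5.81%, with a log2 fold change of -0.09, a counting interval from -0.13 to -0.04 and a widened interval from -0.18 to 0.00741, which included no change. Without Dlg4, which supplied 49.3% of the 8 genes' reads with NC siRNA and 51.1% with CDH12 siRNA, the sum of the rest was lower by 10.7% (log2 fold change -0.16, counting interval from -0.23 to -0.10, widened interval from -0.27 to -0.06). The share of Grin1 among the reads of the 8 was 16.1% with NC siRNA (Wilson interval from 15.4% to 16.9%) and 14.7% with CDH12 siRNA (from 13.9% to 15.5%).

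By the thresholds of the study's methods, P below 0.05 and a fold change above 2, edgeR's exact test on the recovered reads, which compares the 2 libraries and not the treatments, selected 203 genes, or 1.21% of 16756. None of the 8 reached that fold, so they were outside this selection whatever their P. The selection is not the study's own set of differentially expressed genes, and its size depended on the test, as given below. Without the fold, an unadjusted P below 0.05 was given to 1 of the 8 (Grin1) and 3.96% of all genes by edgeR's exact test, and to 0 of the 8 and 0.889% of all genes by the DESeq2 Wald test.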

How the data were processed

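Per the processing notes of the submitters, adapters were trimmed with cutadapt 1.15, reads were counted per gene with HTSeq 0.9.1, and DESeq 1.30.0 was used. The paper's methods name an older HTSeq release. The aligner, genome build, annotation and strand setting are not given in the sources used here. The deposited signal of each gene is its read number divided by 1 size factor per library, as made by the authors. Dividing by the smallest non-zero value gave whole reads (within 0.01 of a read) for 100% of the values, with 1 read worth 0.944 (NC siRNA) and 1.06 (CDH12 siRNA). No read was counted for 640 and 618 genes, and a floor of 3 reads is 1.94e-05% and 2.19e-05% of the reads. The protocols name no molecular identifiers, so intervals and floors cover counting error only.

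Fold changes used the authors' scaling and no pseudocount for the 8 genes. Counts over all genes past a fold used log2(normalized count + 1) and at least 20 reads in the 2 libraries together. For widened intervals, genes were put in 9 classes by read number, and the reads were divided by the ratio of the observed to the counting variance of the class, between 1.66 and 4.77 for the 8 genes. The widened interval of a sum, added after the data were seen, used the mean of these ratios weighted by reads. Intervals of ratios used the normal approximation on the log scale. The edgeR 4.0.16 exact test (TMM scaling, trended dispersion with both libraries as 1 group) and a DESeq2 1.42.0 Wald test with fitted dispersion were run in R 4.3.3 as alternatives, after being tested on simulated data, since 1 library per treatment allows no test among replicates. Intervals were computed in Python 3.11.15 with numpy 2.4.6 and scipy 1.17.1.

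The members, lists and tests were chosen with earlier results of these data known. All 8 members were to be named. Lists of other synaptic genes and cell type markers were also drawn up by symbol, but the RefSeq table paired 0 identifiers with symbols, so they were not used, and transcript lengths were not used here. Likeness of pattern was not computed over 2 libraries.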

Additional observations from a re-analysis of the deposited data

How the results depend on the processing

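The log2 fold changes of the 8 genes were recomputed with TMM, with total counts, with pseudocounts of 0.1, 1 and 5, and in the edgeR and DESeq2 fits. All 56 values stayed lower in the CDH12 siRNA library and inside the counting interval of their gene, and the largest move was 0.04. The alternatives reused the same reads, and scaling by TMM or by total counts shifted every gene by only 0.001 or 0.0122 in log2. The direction could therefore hardly change, and its constancy is no further support for it. The number of the 8 genes with a counting interval below no change, 3, stayed at 3 with TMM and was 2 with total counts (without Gria1). It was 1 with the widened interval and 1 by an unadjusted P below 0.05 in edgeR's exact test (Grin1 in both), and 0 by the DESeq2 Wald test, where 3.96% and 0.889% of all genes had such a P. Grin1 had an unadjusted P of 0.0388 in the edgeR test, a comparison of libraries and not of treatments, and an adjusted P of 1. Of the 7 pairs, 1 had a counting interval on one side of no difference and 0 a widened one. Over all genes, 256 differed by more than 2-fold. This number was 141 with a pseudocount of 5, 1777 from 1 read upward, 31 from 100 reads upward, 203 by edgeR's exact test and 46 by the DESeq2 Wald test. The number of genes whose counting interval lay on one side of no change was 3159, and 906 with the widened interval. The read minimums and the widened interval act by construction, and the cause of the other changes was not tested.

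No paired analysis was possible because there were no replicates to pair, and for the same reason none was left out in turn. Ratios per kilobase of coding length and the gene lists were not run, because lengths and symbols were not paired with the identifiers here.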
